A study of Mus musculus with 4 samples.

Results

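Integrins are cell-surface receptors built from 1 alpha and 1 beta chain, and the 7 genes described here are Itgb2, which encodes the beta-2 chain of the leukocyte integrins, its alpha partners Itgam and Itgal, and the chains Itgb1, Itgb5, Itga6 and Itgav, which were listed as other microglial integrins. They were taken by gene symbol from the 31055 genes counted in each library, and all 7 were among the 17535 genes kept. Itgb2 lies in the segment that the Dp(10)2Yey mouse carries in 3 copies in place of 2, while the other 6 genes lie elsewhere and keep 2 copies. Single-cell RNA sequencing was done on the dissociated hippocampus of 2 Dp(10)2Yey mice and 2 wild-type (WT) littermates, with 1 library per mouse. All were males aged 3 months on a C57BL/6J background. The Dp(10)2Yey mice were hemizygous for a duplication inside chromosome 10, a model of Down syndrome that covers only this stretch of the genes found on the trisomic human chromosome.

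The beta-2 chain reaches the cell surface only when paired with an alpha chain, and its expression is limited to leukocytes and to microglia, the resident macrophages of the brain. With the alpha chain encoded by Itgam (CD11b) it forms complement receptor 3, which microglia use to bind and engulf material tagged by complement, synapses in the developing brain included. With the chain encoded by Itgal it forms LFA-1, through which lymphocytes adhere to cells that carry intercellular adhesion molecules. Itgb1 encodes the broadly used beta-1 chain, a partner of many alpha chains including that of Itga6, a receptor for laminin. Itgb5 encodes a beta chain that pairs with the product of Itgav in a receptor for vitronectin.

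The assay counts captured RNA molecules by unique molecular identifiers (UMIs), and 3002546 and 6848466 UMIs were counted in WT replicates 1 and 2, and 5112759 and 9612011 in Dp(10)2Yey replicates 1 and 2. After filtering, 1018 and 1682 cells remained in the WT libraries and 1350 and 2199 in the Dp(10)2Yey libraries, with 8 cell barcodes shared between libraries. In these cells the 7 genes together had 2749 and 5135 UMIs in WT and 4577 and 7750 in Dp(10)2Yey. WT replicate 1 was the shallowest library. Clustering of the 6249 cells gave 14 classes after 2 microglia-like clusters had been joined, and classes bear the name of the cell type whose marker genes led them, so that astrocyte-like or endothelial-like cells are called astrocytes or endothelial cells. The cells called microglia numbered 311 and 539 cells in WT and 373 and 784 in Dp(10)2Yey. The leading genes of the joined microglia included Ccl4, Cx3cr1 and Atf3, with 4 microglia markers among the first 10. The larger joined cluster, of 1569 cells, had 0 markers of any class among its own 10 leading genes. All 19 listed microglia markers had UMIs in the joined cells, but so had all 17 of oligodendrocytes, 17 of astrocytes and 16 of neurons. The joining itself used 6 of the microglia markers, so that UMIs of those were set in advance. The summed level of the 19 microglia markers was 50670 and 52880 UMIs per 1000000 UMIs of the class and library (CPM) in WT and 51960 and 53740 CPM in Dp(10)2Yey, with C1qa as the most abundant. A further cluster of 576 cells, led by Tyrobp and Cst3 with a median of 801 UMIs, had 2 red blood cell markers (Hba-a2 and Hba-a1) and 1 microglia marker among its 10 leading genes, too few for a name, and was kept apart. Its median cell had UMIs of 4 of the 6 microglia markers used for joining, where 5 were required. The median microglial cell had 4096 UMIs. The unnamed cluster held 125 and 126 cells in WT and 142 and 183 in Dp(10)2Yey.

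In the GRCm38 annotation Itgb2 (ENSMUSG00000000290) lies on chromosome 10, from 77530252 to 77565708 on the plus strand, between Fam207a and Pttg1ip, and it is the only gene with an Itga or Itgb symbol among the 62 protein-coding genes of the duplicated segment. Itgam (ENSMUSG00000030786) and Itgal (ENSMUSG00000030830) are both on chromosome 7, at 128062640 to 128118491 and 127296260 to 127335138. Itgb1 is on chromosome 8 from 128685654 to 128733200, Itgb5 on chromosome 16 from 33829665 to 33949338, and Itga6 and Itgav on chromosome 2 from 71745616 to 71858416 and from 83724397 to 83806916. Promoter sequences from RefSeq (GRCm38.p6) matched 4 of the 7 genes, Itgam, Itgb1, Itgb5 and Itgav, and not Itgb2, Itgal or Itga6. The 250 bases before the start of Itgam (chr7:128062390-128062639, plus strand) and of Itgb1 (chr8:128685404-128685653, plus strand) are shown because these genes differed in how far their RNA came from microglia, with CG dinucleotides in capitals.
Itgam: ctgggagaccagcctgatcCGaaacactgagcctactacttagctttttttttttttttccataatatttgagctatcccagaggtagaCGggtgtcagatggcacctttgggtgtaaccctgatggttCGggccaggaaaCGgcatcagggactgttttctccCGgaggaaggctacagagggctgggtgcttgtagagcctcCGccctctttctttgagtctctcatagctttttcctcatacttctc
Itgb1: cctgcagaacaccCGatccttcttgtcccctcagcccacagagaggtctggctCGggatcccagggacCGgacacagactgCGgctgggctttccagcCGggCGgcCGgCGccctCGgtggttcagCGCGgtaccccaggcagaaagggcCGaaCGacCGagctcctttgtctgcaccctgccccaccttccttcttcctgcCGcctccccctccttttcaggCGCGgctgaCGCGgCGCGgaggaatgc
There were 6 CG dinucleotides in the Itgam window and 21 in the Itgb1 window, beside a median of 6 over the 32817 promoters of the table, and the windows of Itgb5 and Itgav held 18 each. The letters GAGGAAG, a form of the site bound by the myeloid factor PU.1, occurred on either strand in 10.6% of all 250-base windows, in those of Itgam and Itgav, and not in those of Itgb1 and Itgb5. No exon of the annotation overlapped any of the 4 windows.

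Itgb2 RNA came mainly from microglia, which held 1900 of its 2129 UMIs (89.2%). Its level there was 189 and 177 CPM in WT and 287 and 233 CPM in Dp(10)2Yey. A mean of 221 CPM ± 50.2 (SD over the 4 libraries) put microglia first of the 14 classes by the mean over libraries, before T cells and NK cells at 204 CPM ± 224, the Tyrobp and Cst3 cluster at 177 CPM ± 66.9 and a mixed leukocyte cluster, led by S100a9 and Pf4 and left without a class name, at 159 CPM ± 111. The libraries of these 4 classes overlapped between neighbours in that order. T cells and NK cells came first when any library but Dp(10)2Yey replicate 2 was left out, at 210 to 272 CPM against 199 to 236 CPM in microglia, and were at 98.6 CPM without that library. They were first also with UMIs pooled over libraries, at 223 CPM in microglia and 332 CPM in the 22 T cells and NK cells, of which WT held 5 with 1 UMI of Itgb2. Every library of the leukocyte cluster lay above the class in the next place, endothelial cells, at 10.9 CPM ± 4.96. In oligodendrocytes the level was 2.72 CPM ± 2.09, and in astrocytes 3.07 CPM ± 3.61. Immature neurons had 4 UMIs of Itgb2, neurons and oligodendrocyte precursors 2 each and ependymal cells 1, and none was found in the Ttr-led cluster, the Cajal-Retzius neurons or the cluster led by 9630013A20Rik and Fyn, where 3 UMIs would have been 6.88, 12.3 and 6.85 CPM. These limits cover counting error only, and levels this low can include free RNA from other cells.

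Itgam was the more concentrated in microglia, with 4201 of 4540 UMIs (92.5%). Its microglial level of 495 CPM ± 17.4 lay above that of the Tyrobp and Cst3 cluster, at 360 CPM ± 74.1, in every library, and the leukocyte cluster followed at 119 CPM ± 34.3 and overlapped with T cells and NK cells at 65.3 CPM. The other 10 classes had a mean of up to 12.1 CPM of Itgam, with 0 UMIs in the Cajal-Retzius neurons and the cluster led by 9630013A20Rik and Fyn. That mean, in immature neurons, came from 13 UMIs in 3 of 185 cells, at 0 and 0 CPM in WT and 27.9 and 20.4 CPM in Dp(10)2Yey. In the same class Ccl3, a leading gene of microglia, was at 0 and 0 normalised CPM in WT and 392 and 200.3 in Dp(10)2Yey, and the part of RNA from microglia was not tested. Itgal was of another kind, since none of its 36 UMIs was in the 2007 microglia. In microglia 3 UMIs would have been 0.352 CPM, and 3 cells with a UMI 0.149% of the class, values that cover counting error only. T cells and NK cells held 16 of the Itgal UMIs in 10 of 22 cells, the leukocyte cluster held 16 in 7 of 111 cells, and endothelial cells held 4 in 1 of 269 cells. Of the 2 alpha partners listed, only Itgam was therefore detected beside Itgb2 in microglia at this depth. A UMI of both Itgb2 and Itgam was found in 916 microglia, of Itgb2 alone in 191, of Itgam alone in 661 and of neither in 239.

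The remaining chains were spread more widely. Itgb5 came mostly from microglia (84.7% of 5684 UMIs), at 590 CPM ± 92.6, and the Tyrobp and Cst3 cluster overlapped with it at 516 CPM ± 67.1. Astrocytes had 120 CPM ± 15.1 of Itgb5. Itga6 was highest in endothelial cells, at 377 CPM ± 35.8, where every library lay above every library of microglia, at 175 CPM ± 24.2. Itgav was highest in oligodendrocyte precursors, at 207 CPM ± 43.6, then in astrocytes at 139 CPM ± 19.1 and microglia at 86.7 CPM ± 9.66, and none of these neighbours overlapped. Microglia held 67.6% of the Itga6 UMIs and 39.4% of the Itgav UMIs. Itgb1 had UMIs in all 14 classes, with 40.7% of 3907 UMIs in microglia. Of the UMIs of all genes, microglia held 1124154 of 2938356 and 2298736 of 6720110 in WT. In Dp(10)2Yey they held 1698123 of 5007077 and 3405668 of 8835922. The microglial shares of Itgb1 and Itgav were thus not far from that of all RNA. The mean level of Itgb1 was 420 CPM ± 384 in T cells and NK cells, 347 CPM ± 52.0 in endothelial cells and 304 CPM in the cluster led by 9630013A20Rik and Fyn. The first of these rests on WT replicate 2, with 8 UMIs in 2 cells (952 CPM). Without that library it was 242 CPM, below endothelial cells at 347 CPM, and with UMIs pooled the values were 354 and 349 CPM. Oligodendrocyte precursors followed at 210 CPM ± 49.9, with microglia at 185 CPM ± 13 in place 6 and oligodendrocytes next at 173 CPM ± 17.1. Every class overlapped with the next in that order, down to neurons at 22.7 CPM.

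**Figure D1:**
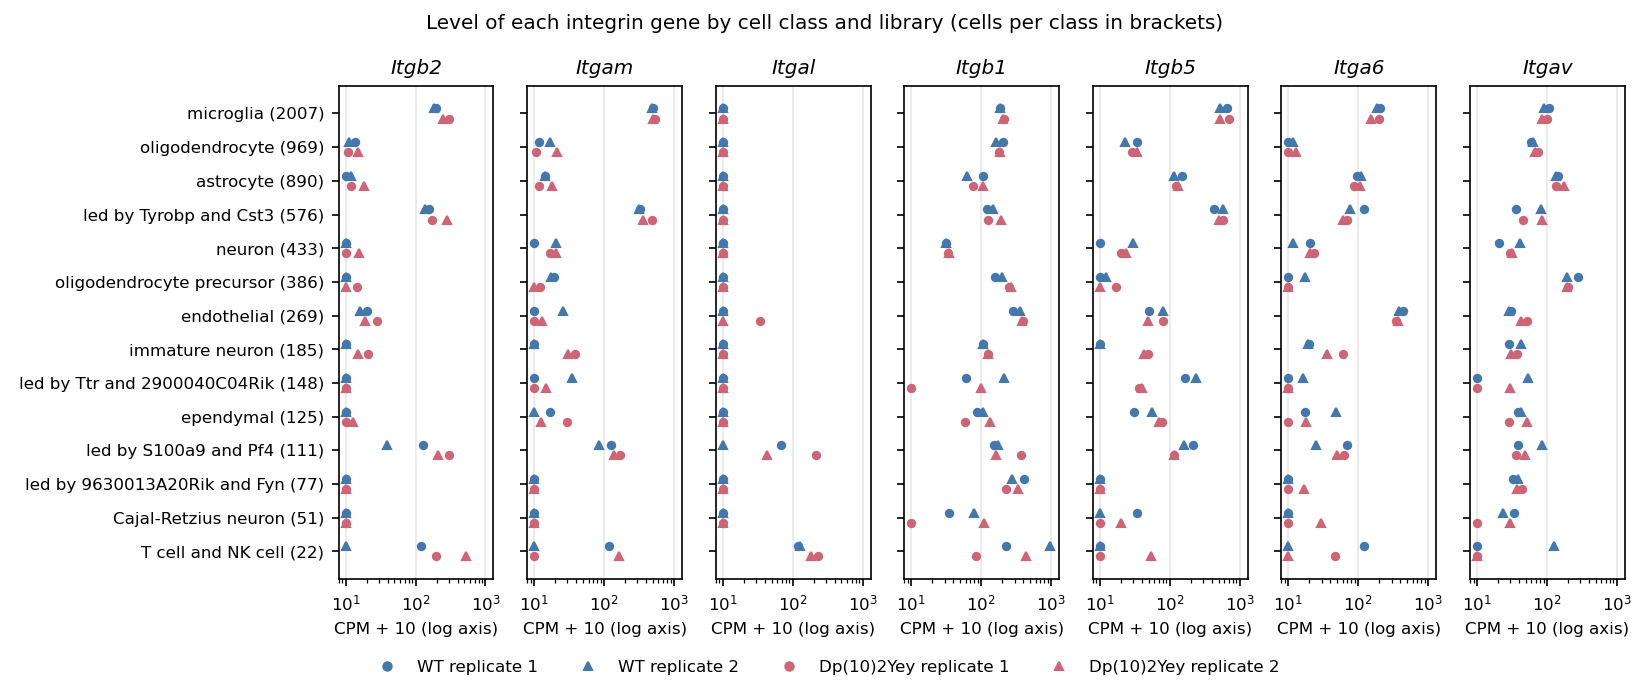
Level of the 7 genes in each of the 14 cell classes, as CPM + 10 on a log axis, with 1 point per library and the number of cells of the class in brackets. Itgb2 and Itgam are high in microglia and in the cluster led by Tyrobp and Cst3. Itgb2 also has a mean of 204 CPM in T cells and NK cells and 159 CPM in the leukocyte cluster. Itgal has UMIs only in T cells and NK cells, the leukocyte cluster and endothelial cells, and Itgb1 has UMIs in every class.

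The comparison between genotypes asked how the gene with 3 copies stood beside partners with 2 copies in the cells that express it. In microglia the level of Itgb2 was 183 CPM ± 8.46 in WT and 260 CPM ± 38.4 in Dp(10)2Yey (SD, n = 2 libraries each), and the genotypes did not overlap. Of Itgam the 4 values were 496 and 477 CPM in WT and 518 and 489 CPM in Dp(10)2Yey, and the genotypes overlapped. By the edgeR quasi-likelihood test on UMIs summed per library, the log2 fold change of Itgb2, Dp(10)2Yey over WT, was 0.49 (SE 0.15, unadjusted p = 0.00335), with a 95% interval from 0.18 to 0.80 that holds 0.585, the log2 of 3 copies over 2. After Benjamini-Hochberg adjustment over the 9087 genes tested it did not pass the threshold of 0.01 (adjusted p = 0.92), and with the replicate number as a block the adjusted p was 0.0176, the lowest of 16 alternatives that otherwise reached up to 1. For Itgam the log2 fold change was 0.03 (SE 0.13, adjusted p = 0.999 by edgeR), with an interval from -0.24 to 0.31 that does not reach 0.585.

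Itgb1 was at 173 and 174 CPM in WT and 199 and 193 CPM in Dp(10)2Yey, which did not overlap, with a log2 fold change of 0.15 and an interval from -0.14 to 0.44. For Itgb5 the levels were 646 and 510 CPM in WT and 691 and 512 CPM in Dp(10)2Yey, so that the spread within a genotype exceeded the difference between them. Itga6, at 193 and 177 CPM in WT and 190 and 140 CPM in Dp(10)2Yey, and Itgav, at 98.7 and 82.2 CPM in WT and 89.5 and 76.3 CPM in Dp(10)2Yey, overlapped too. Their log2 fold changes were 0.04 for Itgb5, -0.19 for Itga6 and -0.14 for Itgav. Single libraries set some of these signs, since the value of Itgam was -0.012 and that of Itgb5 -0.19 without Dp(10)2Yey replicate 1, that of Itgb5 -0.10 without WT replicate 2, and that of Itga6 0.031 without Dp(10)2Yey replicate 2. The value of Itgav kept its sign but ranged from -0.26 with WT replicate 2 left out to -0.010 with Dp(10)2Yey replicate 2 left out. Of the 6 members that passed the filter on low counts in microglia, 0 passed the adjusted threshold in edgeR and 0 in DESeq2, where 0.011% of all genes did in edgeR. An unadjusted p under 0.05 was reached by 1 member, Itgb2, against 3.06% of all genes. The Dp(10)2Yey libraries were above the WT libraries without overlap for 2 members, Itgb2 and Itgb1, against 14.6% of all genes, and the fold change was above 0 for 4 members, against 50.5%. The single gene past the adjusted threshold in microglia was the hemoglobin gene Hbb-bs, named here after its values were seen, at 17.8 and 23.7 normalised CPM in WT and 173 and 75.7 in Dp(10)2Yey. All 6 red blood cell markers had UMIs in microglia, with a summed level of 32.0 and 49.6 CPM in WT and 360 and 132 CPM in Dp(10)2Yey and Hbb-bs as the most abundant of them, and their part in the values of Itgb2 was not tested.

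**Figure D2:**
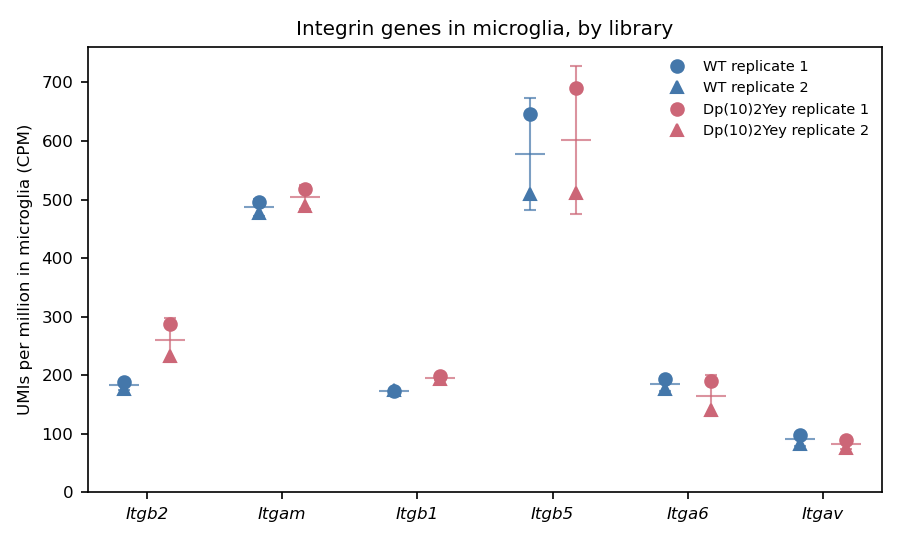
Level of 6 integrin genes in microglia in CPM, with 1 point per library and the mean and SD of each genotype (n = 2); Itgal is left out because it had 0 UMIs. Both Dp(10)2Yey libraries, at 287 and 233 CPM, are above both WT libraries for Itgb2, and the genotypes overlap for Itgam.

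Depth cancels in the ratio of 2 genes within a library. Itgb2 and Itgam had 212 and 558 UMIs in microglia of WT replicate 1 and 406 and 1096 in WT replicate 2, against 488 and 880 in Dp(10)2Yey replicate 1 and 794 and 1667 in Dp(10)2Yey replicate 2. Itgb2 was thus 27.5% (95% Clopper-Pearson interval 24.4 to 30.8) and 27.0% (24.8 to 29.4) of the pair in WT, and 35.7% (33.1 to 38.3) and 32.3% (30.4 to 34.1) in Dp(10)2Yey. The WT libraries nearly coincided, and both Dp(10)2Yey libraries lay above them with the larger spread. The mean log2 ratio was -1.41 ± 0.03 (SD) in WT and -0.96 ± 0.16 in Dp(10)2Yey, a difference of 0.45 or 1.37-fold. The two-sided exact permutation test gave p = 0.33, the smallest it can give with 2 libraries against 2. Over UMIs summed by genotype the Dp(10)2Yey ratio was 1.35 times the WT ratio, with a 95% interval from 1.20 to 1.51 that covers counting error only and no difference between mice. No ratio to Itgal could be formed in microglia, and the sum of both partners equals Itgam there. Against Itgb5 and Itgb1, pairs added after the data were seen, the differences of the log2 ratio were 0.45 and 0.33. The library values of the genotypes did not overlap in either pair. The difference against Itgb1 was 0.20 when Dp(10)2Yey replicate 1 was left out. In every pair, that with Itgam included, the counting interval of a WT library overlapped that of a Dp(10)2Yey library.

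**Figure D3:**
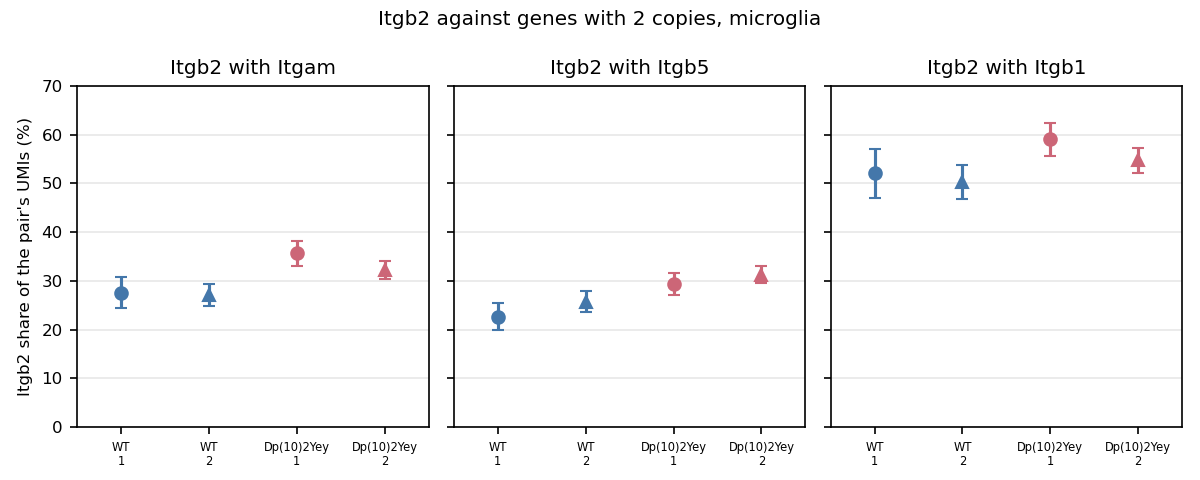
Itgb2 as a percentage of the UMIs of Itgb2 and a second gene with 2 copies in both genotypes, in microglia of each library, with 95% Clopper-Pearson intervals for counting error. With Itgam the WT libraries are at 27.5% and 27.0% and the Dp(10)2Yey libraries at 35.7% and 32.3%. The point values of the genotypes do not overlap in any of the 3 pairs. In each pair the interval of a WT library overlaps that of a Dp(10)2Yey library.

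The share of microglia with an Itgb2 UMI was 48.2% and 47.9% in WT and 64.1% and 58.7% in Dp(10)2Yey before thinning, from cells with a median of 3635, 4178, 4419 and 4128 UMIs in the same order. Unthinned shares were also higher without overlap for Itgam, at 73.3% and 77.9% in WT and 78.0% and 81.4% in Dp(10)2Yey, and for Itgb1 and Itgb5, so that the unthinned difference is not particular to Itgb2. With each cell thinned to 1000 UMIs by 1 random draw, which left out 78 of 2007 cells, the Itgb2 share was 14.7% and 16.4% in WT and 23.3% and 20.2% in Dp(10)2Yey. That difference of 6.16 percentage points had a two-sided exact permutation p of 0.33. Itgam, treated alike, was found in 36.3% and 33.0% of WT cells and 35.9% and 38.9% of Dp(10)2Yey cells, and the genotypes overlapped. The sign for Itgam differed between thinned sets, at 2.74 percentage points here, -3.13 at 2000 UMIs and 4.02 at 2000 UMIs without doublets, while for Itgb2 the same sets gave 6.16, 8.89 and 7.61. Averaged over all possible draws, an alternative added after seeing the data, Itgb2 differed by 5.41 and 7.53 percentage points at 1000 and 2000 UMIs, and Itgam by 1.05 and 1.29. At 1000 UMIs that average separated the genotypes for Itgam too, at 36.5% and 36.2% in WT and 37.3% and 37.4% in Dp(10)2Yey. It did so for Itgb1 as well, by 1.28 percentage points at 1000 UMIs (16.7% and 15.9% in WT, 17.7% and 17.4% in Dp(10)2Yey). At 2000 UMIs the average for Itgb1 differed by 2.95 (28.7% and 27.5% in WT, 31.0% and 31.1% in Dp(10)2Yey). The single draw at 1000 UMIs gave Itgb1 the other sign, -2.2 percentage points. Its shares were 20.1% and 17.6% in WT and 17.8% and 15.5% in Dp(10)2Yey, and the genotypes overlapped. For comparison, oligodendrocytes, with a median of 4966 UMIs, had an Itgb2 UMI in 0.929% of 969 cells, and in 0.108% after thinning. Without called doublets the Itgb2 difference in microglia was 13.1 percentage points before thinning, against 13.3 with all cells, and 6.56 at 1000 UMIs. The part of free RNA in these shares, and of doublets in those of oligodendrocytes, was not tested.

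The joined microglia consisted of a cluster of 1569 cells led by Atf3, Il1a and Nfkbiz, and a cluster of 438 cells led by Hspa1b, Hist1h1d and Rgs1, with P2ry12 and Tmem119 further down its 10 leading genes. Itgb2 was higher in both Dp(10)2Yey libraries in each of them. In the Atf3-led cluster it was at 194 and 178 CPM in WT and 281 and 221 CPM in Dp(10)2Yey, and in the Hspa1b-led cluster at 156 and 167 CPM in WT and 326 and 277 CPM in Dp(10)2Yey. Itgam went in opposite directions, at 478 and 458 CPM in WT and 517 and 486 CPM in Dp(10)2Yey in the Atf3-led cluster, but 602 and 576 CPM in WT and 524 and 501 CPM in Dp(10)2Yey in the Hspa1b-led cluster. Over all microglia the libraries lay apart upward in Dp(10)2Yey for 1323 of 9087 genes and downward for 1389. The differences between the clusters were not tested. Resolution 0.5 regrouped cells of the same libraries, so its groups are no independent repeat. There the directions of Itgam were opposite in 2 of 3 groups of microglia. An Hspa1b-led group of 449 cells was at 590 and 575 CPM in WT and 524 and 511 CPM in Dp(10)2Yey, and 1108 cells led by Klf4 and Atf3 at 467.5 and 480 CPM in WT and 539 and 503.5 CPM in Dp(10)2Yey. The other 450 cells, led by Tnf and Gpr84, were at 508 and 407 CPM in WT and 484 and 451 CPM in Dp(10)2Yey, which overlapped. Without integration the microglia formed a single cluster. A clustering from which all integrin genes were left out placed 2005 of the 2007 microglia in a single microglia cluster of 2006 cells.

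The level of Itgb2 can be read beside the other genes of the duplicated segment, which runs from Prmt2 to Pdxk over 2.26 Mb (chr10:76207222-78464975). In microglia 25 of its 62 genes were tested, and their median log2 fold change was 0.57, with quartiles at 0.49 and 0.73. Itgb2, at 0.49, was in place 19 of 25 from the top, and its difference from that median, -0.08, went to 0.06 when Dp(10)2Yey replicate 2 was left out, to -0.26 when Dp(10)2Yey replicate 1 was, and to -0.18 when WT replicate 2 was. Its neighbours Fam207a and Pttg1ip were at 0.57 and 0.63, the lowest value was 0.28 for Icosl, and the highest was 1.35 for Slc19a1. The fold change was above 0 for all 25 genes, against 50.5% of all genes tested in microglia. An unadjusted p under 0.05 was reached by 17, against 3.06% of all genes. The adjusted threshold was passed by 0 in edgeR or in DESeq2, against 0.011% of all genes in edgeR. The 95% intervals of 24 of the 25 genes held 0.585, that of Itgb2 among them, and the exception was Ube2g2, at 1.10 with an interval from 0.66 to 1.54.

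**Figure D4:**
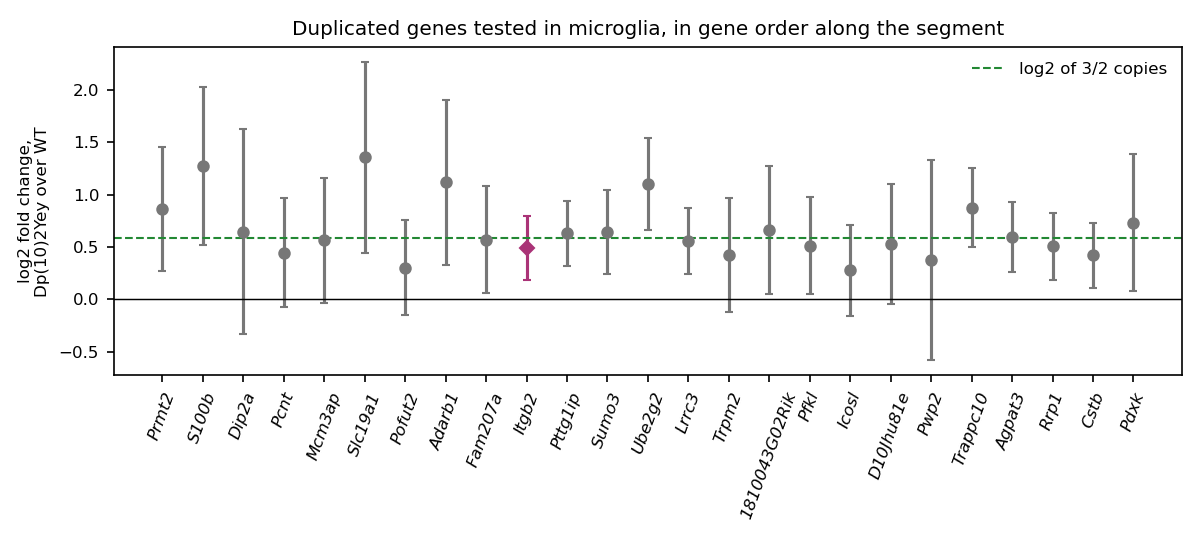
Log2 fold change, Dp(10)2Yey over WT, of the 25 duplicated genes tested in microglia, in their order along the segment, with 95% intervals of the edgeR fit; the dashed line is at 0.585. Itgb2 (diamond) is at 0.49, and its interval overlaps those of its neighbours Fam207a and Pttg1ip.

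Over all cells of a library Itgb2 was at 81 and 64.0 CPM in WT and 107 and 105 CPM in Dp(10)2Yey. Microglia were 30.6% and 32.0% of the cells in WT and 27.6% and 35.7% in Dp(10)2Yey, and the part of their share in these levels was not tested. The log2 fold change of Itgb2 over all cells was 0.55 (SE 0.15) and did not pass the threshold (edgeR adjusted p = 1). Of 6 members tested over all cells 0 passed the adjusted threshold, as did 0.0% of 13803 genes, and 1 had an unadjusted p under 0.05, against 2.83% of all genes. By DESeq2 the count of members was 0 as well.

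Outside microglia 10 classes could be tested, which gave 22 tests of members, of which 0 passed the adjusted threshold in edgeR (0.048% of all tests did) and 4 had an unadjusted p under 0.05 (3.77% of all tests). DESeq2 called 0 members in these classes, and by DESeq2 only Itgb5 in the Ttr-led cluster had an unadjusted p under 0.05. In the Tyrobp and Cst3 cluster Itgb2 was at 148 and 125 CPM in WT and 160 and 275 CPM in Dp(10)2Yey, without overlap but with 1 library far above the other 3, and its log2 fold change was 0.67 (SE 0.33), or 0.28 without that library, Dp(10)2Yey replicate 2. The same library stood apart in the 1 gene called in this cluster, Apoe, named after its values were seen. Apoe was at 689 and 1231 normalised CPM in WT and 1645 and 7245 in Dp(10)2Yey. With RLE and by DESeq2 the number of genes called in this cluster was 0. In the leukocyte cluster Itgb2 was at 116 and 29.7 CPM in WT and 287 and 202 CPM in Dp(10)2Yey, on 53 UMIs in all. Its log2 fold change there was 1.90 (SE 0.81), or 2.89 without WT replicate 1 and 1.09 without WT replicate 2. That cluster was itself a mixture, with 4 MHC class II and 2 border macrophage markers among its 10 leading genes. It divided into 51 cells led by Ccl7, Pf4 and Mrc1 with MHC class II genes, 46 cells with 5 border macrophage markers among the 10 leading genes, and 14 cells led by S100a9, S100a8 and Retnlg, in which neutrophil and B cell genes stood together. The last group had 3 and 1 cells in WT and 6 and 4 cells in Dp(10)2Yey, and its Itgb2 UMIs numbered 0 and 0 in WT and 6 and 13 in Dp(10)2Yey, and its Itgal UMIs 0 and 0 in WT and 7 and 4 in Dp(10)2Yey. The neutrophil gene S100a9 was at 0 and 0 normalised CPM in the whole cluster in WT and at 36870 and 8126 in Dp(10)2Yey. The part of this makeup in the value of the whole cluster was not tested.

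T cells and NK cells, with 3 and 2 cells in WT and 6 and 11 in Dp(10)2Yey, were too few for a test. They held 30 UMIs of Itgb2, 16 of Itgal, 8 of Itgam and 32 of Itgb1, with an Itgal UMI in 45.5% and an Itgb2 UMI in 54.5% of cells. In oligodendrocyte precursors Itgb1 was at 150 and 190 CPM in WT and 243 and 259 CPM in Dp(10)2Yey, without overlap. Its log2 fold change was 0.52 (SE 0.21, edgeR adjusted p = 0.9995). The share of these cells with an Itgb1 UMI differed by -5.09 percentage points when thinned to 1000 UMIs and by 13.7 at 2000 UMIs. The 1 gene called in this class, Gm42418, named after its values were seen, was at 13800 and 21850 normalised CPM in WT. In Dp(10)2Yey it was at 10220 and 7954, and any link to the Itgb1 value was not tested. In the Ttr-led cluster Itgb5 was at 153 and 232 CPM in WT and 26.7 and 30.1 CPM in Dp(10)2Yey, on 50 UMIs, at a log2 fold change of -3.05 (SE 0.65, edgeR adjusted p = 0.973). With the replicate block the edgeR adjusted p of Itgb5 there was 0.00319, the lowest among the alternatives. The block called 32 of the 1397 genes tested in this cluster, 0 of them higher in Dp(10)2Yey, where the main fit called 0. A call with the block was thus not particular to Itgb5. With RLE and by DESeq2 the smallest adjusted p of any gene in this cluster was 0.967 and 0.999. In the fits that left a library out and could test Itgb5, its log2 fold change lay between -3.05 and -2.75. At the finer resolution this cluster lost a group of 22 cells led by Mgp and Prg4, which had 3 and 11 cells in WT and 0 and 8 in Dp(10)2Yey, and its part in the Itgb5 value was not tested.

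Other integrin genes added little in microglia, where the 7 members made up 96.2% of the 15226 UMIs of all integrin chains. Of 20 other chains listed, 18 were kept and 3 were tested in microglia, and 0 passed the adjusted threshold. Itga9 was at 28.5 and 21.3 CPM in WT and 36.5 and 32.0 CPM in Dp(10)2Yey, at a log2 fold change of 0.47 (SE 0.23), while Itgb3 and Itga5 were at -0.21 and -0.06. The further alpha partners of the beta-2 chain were scarce, with 27 UMIs of Itgax in microglia and 0 of the 77 UMIs of Itgad. Of 28 genes for integrin ligands 7 were tested in microglia and 0 passed. Icam1, a ligand of the leukocyte integrins, was at 431 and 354 CPM in WT and 425 and 350 CPM in Dp(10)2Yey. Tgfb1, whose latent form binds integrins of the Itgav chain, was at 308 and 283 CPM in WT and 296 and 301 CPM in Dp(10)2Yey. Cd47, which encodes an integrin-associated protein, was at a log2 fold change of -0.02. Spp1, which encodes the ligand osteopontin, was at 1.78 and 46.1 CPM in WT and 0 and 29.9 CPM in Dp(10)2Yey, so that it differed more within a genotype than between them. Of 33 genes for integrin activation and adaptors 24 were tested and 0 passed. In the 3 lists 0 genes had an unadjusted p under 0.05 in microglia, and DESeq2 called 0 genes there. The kinase gene Lyn was at 477 and 458 CPM in WT and 487 and 524 CPM in Dp(10)2Yey, and the log2 fold changes of Tyrobp, Fcer1g and Rap1b, the last a GTPase that activates integrins, were -0.06, -0.04 and 0.05. Medians of the log2 fold change in microglia were -0.06 over the other chains, -0.03 over the ligands and -0.02 over activation and adaptors, beside 0.04 over the 6 tested members and 0.00 over all genes tested.

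Across the 14 classes the pattern of Itgb2, as log2(CPM + 10) averaged over the 4 libraries, was most like that of Hcls1 (Pearson r = 0.992), Laptm5 (0.990), Cd53 (0.988), Ptpn6 (0.987) and Irf8 (0.985), among 11909 genes with at least 100 UMIs. These correlations are across classes that share libraries and depth and are given as a description. Itgam was at 0.936 with Itgb2 and the genes most like it included Card9 and Vav1 (0.988 and 0.987). Itgal, on 36 UMIs, was at 0.509 with Itgb2 and most like Ltb, H2-Q7 and Mndal. The genes most like Itgb5 were Pnp, Ctsd and Renbp, those most like Itgb1 were Gpbp1l1, Slc50a1 and Commd7, those most like Itga6 were Gbp7, Trim12a and Fmnl3, and those most like Itgav were Peli2, Tyr and Wdr41.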

How the data were processed

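Single-cell RNA of the hippocampus was analysed from raw UMI counts per gene and cell barcode, which the authors deposited without normalization from Cell Ranger 3.0.2 and a custom mm10 reference. The members and gene lists were chosen with earlier results of these data known. Barcodes needed 200 or more detected genes, and genes needed UMIs in over 3 cells. The removal of 32 cells with over 20% globin UMIs, the joining of clusters whose median cell had UMIs of at least 5 of 6 microglia markers, the low UMI cluster as an addition, the pairs with Itgb5 and Itgb1, the mean over all thinning draws and class levels with a library left out were chosen after seeing the data. Seurat 5.3.0 clustered the cells (2000 variable genes per library, integration, 50 dimensions, resolution 0.2). A class name required 3 markers among a cluster's 10 leading genes, ranked by fold with 10 CPM added, and more than any other class had, with 1 exception chosen after seeing the data: the cluster led by S100a9 and Pf4 had 4 MHC class II markers and was left unnamed, since other leading genes mark neutrophils and border macrophages. Scrublet in scanpy 1.11.5 called 60 doublets (0.96%), which were kept. UMIs were summed per library in classes with at least 10 cells in every library and tested with edgeR 4.0.16 (TMM, filterByExpr, quasi-likelihood, Benjamini-Hochberg, threshold 0.01), which was tested on simulated data. SE is the log2 fold change over the root of F, and normalised CPM use TMM. Named are the members, the 4 genes of each list with the most UMIs in microglia, genes of the segment and the genes most like each member. Alternatives were DESeq2 1.42.0, RLE, no filter, a replicate block, each library left out, a threshold of 0.05, doublets or cells over 20% mitochondrial UMIs removed, thinning, no integration, resolution 0.5, clustering without integrin genes, and marker-gated microglia. Mice were prepared on 2 days, each with both genotypes, and which replicates share a day is not stated.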

Additional observations from a re-analysis of the deposited data

Results flagged for a closer look

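Among 28 pairs of a member and a class or microglia cluster with at least 10 UMIs in every library, Itgam was the gene whose libraries lay apart between the genotypes in opposite directions. Such separation was common, since over all microglia the libraries lay apart upward in Dp(10)2Yey for 1323 of 9087 genes and downward for 1389. In the Hspa1b-led cluster of microglia both Dp(10)2Yey libraries, at 524 and 501 CPM, were below the WT libraries, at 602 and 576 CPM. In the Atf3-led cluster of microglia the Dp(10)2Yey libraries, at 517 and 486 CPM, were above those of WT, at 478 and 458 CPM. The same held for the cluster led by Tyrobp and Cst3, at 467 and 349 CPM in Dp(10)2Yey and 322 and 301 CPM in WT. The log2 difference between the genotypes, with 10 CPM added, was 0.30 higher in the Atf3-led cluster and 0.58 higher in the cluster led by Tyrobp and Cst3 than in the Hspa1b-led cluster. These differences were not tested. Resolution 0.5 regrouped cells of the same libraries and is no independent repeat. An Hspa1b-led group of 449 microglia was lower there, at 524 and 511 CPM in Dp(10)2Yey and 590 and 575 CPM in WT. A group of 1108 led by Klf4 and Atf3 was higher, at 539 and 503.5 CPM in Dp(10)2Yey and 467.5 and 480 CPM in WT. In the other 450, led by Tnf and Gpr84, the genotypes overlapped, at 508 and 407 CPM in WT and 484 and 451 CPM in Dp(10)2Yey. The division itself was not found in every setting, since the microglia formed a single cluster without integration and with integrin genes left out of the clustering.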

How the results depend on the processing

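The log2 fold change of Itgb2 in microglia stayed between 0.44 and 0.53 over 12 other settings and between 0.33 and 0.64 with a library left out, with 0 members past the adjusted threshold in each. With a library left out the values ranged from -0.012 to 0.076 for Itgam, from -0.19 to 0.25 for Itgb5 and from -0.41 to 0.031 for Itga6, so that these directions turned, and from -0.26 to -0.010 for Itgav, which was -0.036 with thinned sums. The log2 ratio of Itgb2 to Itgam stayed between 0.43 and 0.45, and between 0.34 and 0.56 with a library left out, against 0.33 to 0.58 for Itgb5 and 0.20 to 0.46 for Itgb1. Thinning to 2000 UMIs turned the difference in microglia with an Itgam UMI to -3.13 percentage points, but to 4.02 without doublets, a set with 1830 in place of 1836 cells and a separate random draw of UMIs. The mean over all draws gave 1.05 and 1.29 points for Itgam at 1000 and 2000 UMIs, and 5.41 and 7.53 for Itgb2.

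The number of genes called in microglia, 1, became 0 by DESeq2, 0 without doublets, 0 with gated microglia and 6 at a threshold of 0.05, and 3 to 20 with a library left out. Over all cells it was 0, and 4 by DESeq2, 1 without a filter and 0 to 14 with a library left out. In the other 10 classes it was 20, and 9 by DESeq2, 135 without a filter and 72 to 291 with a library left out, of which 0 or 1 were members. The causes of these shifts were not tested. Fits without a library assume that the lone library varies like the other genotype.

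The same replicate number does not show a shared day, and deviations of same-numbered libraries from their genotype's mean correlated at 0.159 over genes in microglia, 0.406 in the Ttr-led cluster, 0.243 in the leukocyte cluster and 0.235 in oligodendrocytes. Over all cells the correlation was 0.00227, and in the other 7 classes it went from -0.048 to 0.0806. With the replicate block 26 genes were called in microglia, 0 of them members, and 73 in the other classes, 1 of them a member. That member was Itgb5 in the Ttr-led cluster, at -3.20, where the block called 32 of 1397 genes, 0 of them higher in Dp(10)2Yey. The Itgb5 value was -3.05 with WT replicate 1 left out and -2.75 with Dp(10)2Yey replicate 1 left out. Without either of the other libraries it had too few UMIs for a test. The block changed no other call of a member. The cluster of low UMI cells, added to microglia after the data were seen, left Itgb2 at 0.49. With 2 libraries per genotype no exact test of a single value can pass 0.05. Depth limits Itgal, which had 36 UMIs, the fewest of the 7 genes.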
